A study of Mus musculus with 6 samples.

Results

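The mitosis and chromosome segregation genes followed here are 43 genes named for their part in cell division: 10 mitotic kinases and cyclins, 10 kinetochore proteins, 10 spindle motors and microtubule binders, 7 condensin subunits and other chromosome structure proteins, and 6 proteins of anaphase and the chromosomal passenger complex. They were taken by name and not by a cutoff on any measured value, though with earlier results of these data known. All 43 were found among the 55487 genes of the expression table and all 43 passed the filter on low values, a mean of 10 or more normalized counts per library. A normalized count is the number of reads on a gene multiplied by one scaling factor for its library. In the libraries labelled pIpC, 24 of the 43 genes were called higher and 1 was called lower, and the median log2 difference of the 43 from the PBS libraries was 0.45. Mki67, Ccna2 and Plk1 rose by between 1.90- and 1.98-fold. The order of the genes changed when the outlying library PBS replicate 3 was left out (log2 differences of 0.66, 0.89 and 0.68). Kif4, Nusap1, Ube2c and Birc5 then lay above Mki67 and Plk1, at 0.82, 0.82, 0.79 and 0.70. The single fall was that of Pttg1.

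The samples came from a model of acute myeloid leukemia maintained by MLL-AF9, a fusion oncoprotein delivered by a retrovirus that also carries GFP. All donor cells were CD45.2(+), carried Mx1-Cre with both Brd9 alleles floxed (Brd9fl/fl) and expressed MLL-AF9, and all recipients were CD45.1(+) CD45.2(-) C57BL/6 mice. One set of 3 recipients received PBS and the other set of 3 received pIpC at 20 mg/kg in 3 doses, and RNA of GFP+ bone marrow cells from femora and tibiae was taken 10 days after injection. pIpC is a double-stranded RNA mimic that raises interferon, which switches on Cre from the Mx1 promoter and so removes the floxed part of Brd9, a bromodomain subunit of the non-canonical BAF chromatin remodelling complex. Interferon, Cre and the deletion therefore came together, and no pIpC-treated recipients without the floxed alleles were among these 6 samples, so that they cannot be told apart. The study's methods describe c-Kit+ cells, while the labels give GFP+ cells. Whether the 6 recipients received cells of 1 primary leukemia is not given in the sources used here, so that the p-values measure the spread between these samples only.

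Cells enter mitosis when cyclin A and cyclin B activate CDK1, after which condensins and topoisomerase II compact the chromosomes, kinetochores attach them to spindle microtubules, and kinesin motors move and order the spindle. The anaphase-promoting complex, switched on by Cdc20 once the spindle checkpoint is satisfied, marks securin and cyclins for destruction so that sister chromatids part. Most of these genes are transcribed late in the cell cycle, in G2 and M phase, under the MuvB complex with B-MYB and FOXM1, and are held down in resting cells by the DREAM complex, which bind the cell cycle genes homology region (CHR) in their promoters, often with CCAAT boxes bound by NF-Y nearby. In bone marrow, mitosis genes mark dividing progenitors of every lineage as well as dividing leukemia cells.

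The promoters of the genes were read first, because they show what the genes share apart from their names. RefSeq promoters (GRCm38.p6, from 250 bases before to 50 after each transcription start) were held for 36 of the 43 genes. Those of Tpx2, Smc4, Kif20a, Ccna2, Spc24, Aurkb and Incenp were not analysed here. The CHR letters TTTGAA, searched on both strands, were present in the promoter of 26 of the 36 genes (72.2%), against 20.2% of all 27025 genes and 17.9% of all 32851 promoters of the same length. The CCAAT letters, on both strands, were present in 27 of 36 (75%), against 41.1% of all genes and 37.4% of all promoters. Both motifs stood in the promoters of 23 of 36 genes (63.9%), against 7.97% of all genes, and in none of the members' promoters did the matches overlap. In 23 of the 26 genes with the CHR letters a match began within 50 bases of the start. Over the other mitosis genes listed here, 38 of 92 (41.3%) held TTTGAA, and among DNA replication genes 4 of 33 did (12.1%). A match is a string of letters and not a measured binding site.

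One gene of each role group was chosen for display, the one with the largest change past the threshold whose promoter holds TTTGAA, and Pttg1, the gene that fell, was added after its values were seen. The sequences run 5′ to 3′ on the gene's own strand, and capitals mark the CHR letters, which read TTCAAA when the match is on the other strand, and the CCAAT letters, which then read ATTGG. The base before the start is -1 and the start itself is 1. The windows shown are the 160 bases before the start (in Kif4 also the first 30 bases of the transcript) and, for Plk1 and Ndc80, a 30-base stretch with the site that lies after the start. They cover Plk1 on the plus strand at chr7:122159275-122159434 and chr7:122159453-122159482, Ndc80 on the minus strand at chr17:71526858-71527017 and chr17:71526811-71526840, Kif4 on the plus strand at chrX:100625905-100626094, Mki67 on the minus strand at chr7:135716380-135716539, Ube2c on the plus strand at chr2:164769769-164769928 and Pttg1 on the minus strand at chr11:43425982-43426141.
Plk1 before the start: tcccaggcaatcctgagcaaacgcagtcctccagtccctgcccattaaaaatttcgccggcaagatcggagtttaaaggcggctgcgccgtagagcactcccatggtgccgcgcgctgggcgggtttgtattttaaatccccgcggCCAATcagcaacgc
Plk1 site after the start: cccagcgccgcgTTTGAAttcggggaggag
Ndc80 before the start: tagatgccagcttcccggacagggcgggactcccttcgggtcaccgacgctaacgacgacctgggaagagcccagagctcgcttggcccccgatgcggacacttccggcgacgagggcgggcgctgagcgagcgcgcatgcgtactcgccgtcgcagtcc
Ndc80 site after the start: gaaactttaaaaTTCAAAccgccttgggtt
Kif4 across the start: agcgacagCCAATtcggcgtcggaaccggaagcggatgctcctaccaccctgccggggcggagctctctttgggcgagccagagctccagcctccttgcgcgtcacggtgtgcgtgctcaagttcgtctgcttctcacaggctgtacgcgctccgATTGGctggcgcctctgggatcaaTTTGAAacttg
Mki67 before the start: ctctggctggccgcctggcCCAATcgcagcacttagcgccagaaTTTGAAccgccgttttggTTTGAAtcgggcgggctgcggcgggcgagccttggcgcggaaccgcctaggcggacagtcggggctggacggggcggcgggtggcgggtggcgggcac
Ube2c before the start: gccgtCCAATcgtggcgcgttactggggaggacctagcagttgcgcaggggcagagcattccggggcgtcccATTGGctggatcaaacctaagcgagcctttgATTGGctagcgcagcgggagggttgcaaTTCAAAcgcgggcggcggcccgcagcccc
Pttg1 before the start: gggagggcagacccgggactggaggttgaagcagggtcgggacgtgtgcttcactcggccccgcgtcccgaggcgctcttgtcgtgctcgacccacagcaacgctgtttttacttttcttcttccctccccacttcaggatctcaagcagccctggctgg
Plk1 and Kif4 carry a CCAAT match just before the start and the CHR letters just after it, at position 31 in Plk1 and position 20 in Kif4. Mki67 carries the CHR letters at -116 and -98, Ube2c carries them at -29 on the other strand, and Ndc80 has no CCAAT match. The promoter of Pttg1 held neither motif in its 300 bases. Neither was found for Mad2l1, Nuf2, Nusap1 and Ncaph, which were called higher, or for Birc5, which was not called. Among members with a promoter held, TTTGAA was present in 13 of 20 called higher (65%) and in 13 of 15 not called (86.7%).

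The libraries held between 19277439 and 23586722 reads on genes, and no member had fewer than 208 reads in any library. Brd9, the targeted gene, was counted at 1926.8, 1946.4 and 1631.9 in the PBS libraries and at 2036.0, 2263.0 and 2011.4 in the libraries labelled pIpC. Every pIpC-labelled value was above every PBS value, with a log2 difference of 0.20 ± 0.13 (SE) and a limma adjusted p of 0.259. The two-sided exact permutation test gave p = 0.1, the smallest that 3 against 3 libraries allow. For the same floxed alleles without the leukemia, the paper reports that deletion lowered Brd9 mRNA in whole marrow, with RNA-seq of stem and progenitor cells in support. The whole-gene count here showed no such loss. Counts per exon were not analysed here and the floxed part is only a few exons, so that the deletion itself was not tested in these libraries. The libraries are therefore called by their labels. Marker genes of other cell types moved with the groups, although the labels give GFP+ cells throughout. The summed normalized counts of 13 erythroid markers were 24.2 to 47.5 in PBS and 5121 to 7347 in pIpC-labelled libraries. All 13 of 13 were higher, with Slc4a1 and Rhag at 0 in every PBS library. The 15 B cell markers summed to 1869 to 3060 and 11310 to 41090 (15 of 15 higher, Ms4a1 at 0 in PBS). Most of that sum was Ighm, at 1586.8 to 2696.8 and 8397.2 to 39146.9. The 11 T and NK cell markers summed to 183 to 319 and 4020 to 4629 (7 of 7 tested higher, Trac at 0 in PBS). Most of this sum was Nkg7, at 161.8 to 301.0 in PBS and 3701.6 to 4311.6 in pIpC-labelled libraries. Cd3e, Cd3g, Cd247 and Trac did not pass the filter on low values and reached at most 14.5 counts. The 15 neutrophil markers summed to 82360 to 160000 and to 2236000 to 2319000 (14 of 15 higher). Most of the PBS sum was Elane, the marker not called, with means of 73150 and 50650. The 12 macrophage markers summed to 10340 to 14660 and 6863 to 9274 (9 higher and 2 lower of 11 tested). The 2 that fell were Adgre1, with means of 4307 and 309.5, and Vcam1, with means of 8421 and 4444. Marco was at 0 in PBS and at most 1.0 in pIpC-labelled libraries. Of 8 genes associated with MLL-AF9 leukemia, 6 fell, and Mecom and Mef2c rose. Among those that fell, Hoxa9 had means of 5130 and 256.1 and Meis1 of 3620 and 223.9. The list summed to 15890 to 16100 in PBS and 1831 to 2012 in pIpC-labelled libraries. Most of the latter sum was Mef2c, with means of 5.5 and 1086, so that the sums understate the fall of the other genes. The part of these shifts in the changes of the mitosis genes was not tested, and in such bulk RNA a change in the share of dividing cells and a change of RNA per cell cannot be told apart. PBS replicate 3 stood apart from the other PBS libraries, with a chi-square statistic per gene of 208 against PBS replicate 1, where PBS replicates 1 and 2 gave 6.66, so that results that rest on it are also given without it.

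Which mitosis genes differed between the libraries labelled pIpC and PBS was tested with limma on log2(normalized count + 1) over 15020 genes, at a Benjamini-Hochberg adjusted p under 0.1. Of the 43 genes, 24 (55.8%) rose, where 25.0% of all genes tested rose and 23.3% of the 7781 genes at least as abundant as the lowest member rose. A single gene (2.33%) fell, where 20.4% of all genes fell. The difference was positive for 39 genes and negative for Aurka, Cenpk, Cenpn and Pttg1, with the signs of Aurka, Cenpk, Cenpn and Smc4 turning under other settings, and the median of 0.45 stood beside a median of 0.015 over all genes tested. All 3 pIpC-labelled libraries lay above all 3 PBS libraries for 32 genes, where 30.5% of all genes tested did so, and below them for 1 gene, where 26.3% did so. The changes were small: 12 genes rose by more than 1.5-fold, and no difference was over 1.02 on the log2 scale, that of Pttg1, which was -0.60 without PBS replicate 3. Under quantile normalization, which moved the median of all genes to -0.12, 14 members rose and 1 fell, their median was 0.32 (0.44 above that of all genes), and 44.3% of all calls were higher, against 55.1% with the deposited scaling.

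**Figure D1:**
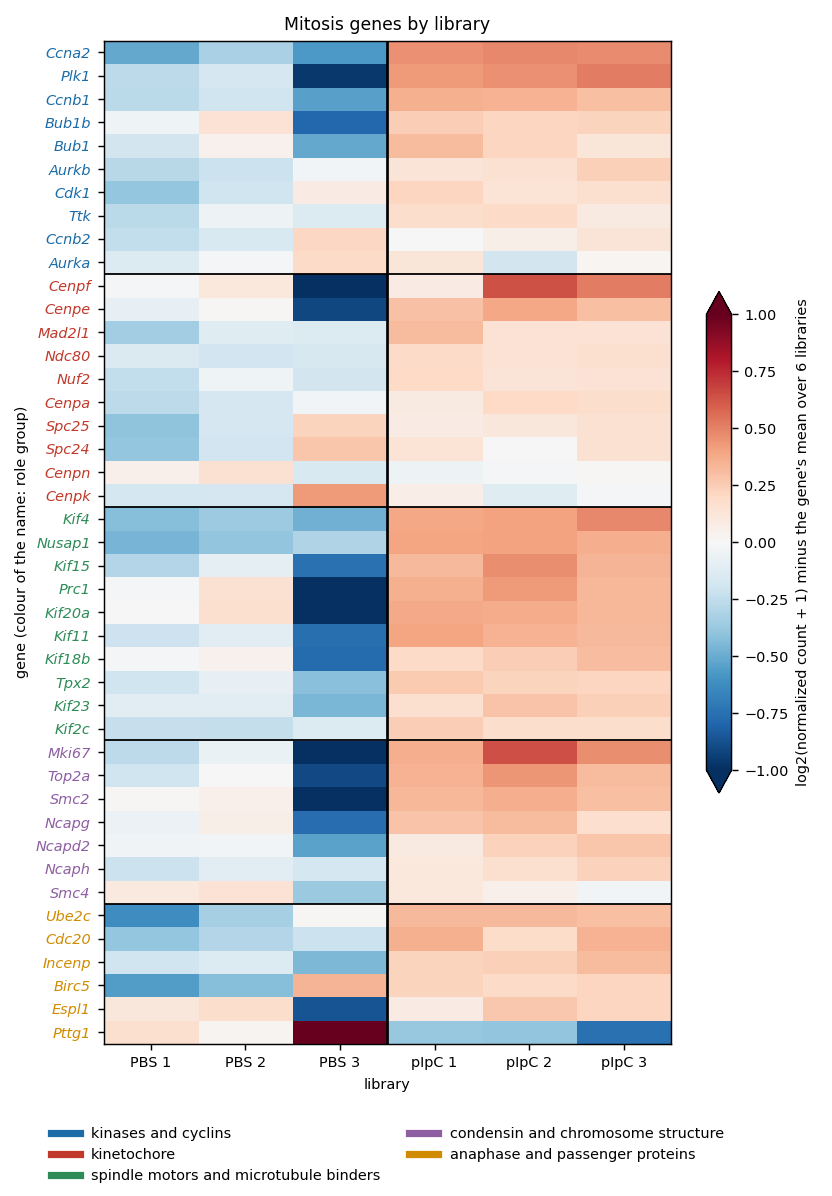
Each row is a gene, ordered by its difference within its role group, each column a library, and the colour is log2(normalized count + 1) minus the gene's mean over the 6 libraries, cut at 1 either way. The 3 pIpC-labelled columns are warm for most genes and like each other, the PBS 3 column is the darkest blue for Cenpf, Prc1, Kif20a, Smc2 and Mki67, and Pttg1 runs the other way.

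Without PBS replicate 3, 37 of the 43 genes (86.0%) rose, where 34.5% of all genes tested rose, and Pttg1 fell, where 30.6% of all genes fell. The 24 genes called with all libraries were all among the 37, while the median difference was smaller, 0.37. PBS replicate 3 was the lowest PBS library for 24 of the genes and the highest for 14, and its distance from the other PBS libraries moved with the length of the gene. Among the 8 genes with under 3 kb of merged exons its median distance was 0.33 above the mean of PBS replicates 1 and 2 on the log2 scale, among the 16 of 3 to 5 kb it was -0.21, and among the 19 over 5 kb it was -0.55. Across the 43 genes, which share the libraries, Pearson's r of this distance with log2 length was -0.60 and Spearman's rho -0.59. The same correlation over all genes tested was -0.27 and -0.44. The log2 difference between the groups had r = 0.42 with length over the 43 genes with all libraries and r = 0.09 without PBS replicate 3. With each library's trend with length removed, 24 members rose and 1 fell, with a median of 0.39, but the genes were partly different. Called in both fits were 19 genes. Ttk, Cenpa, Mad2l1, Ndc80 and Nuf2 lost the call (limma adjusted p between 0.184 and 0.56), and Ccnb2, Cenpf, Spc24, Ncapg and Smc2 gained it (between 0.014 and 0.0952).

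**Figure D2:**
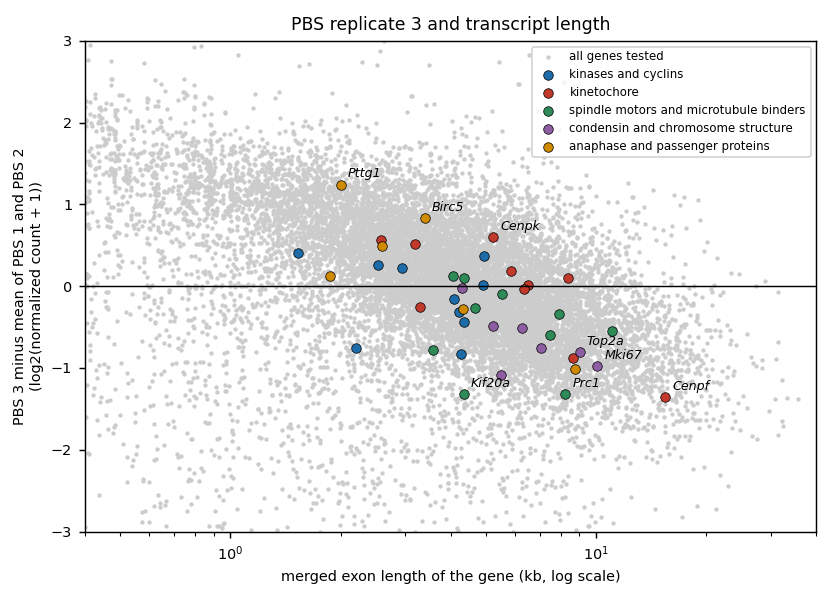
Each point is a gene, with the length of its merged exons in kb on a log axis and, on the vertical axis, log2(normalized count + 1) in PBS replicate 3 minus the mean of PBS replicates 1 and 2. Coloured points are the 43 mitosis genes by role and grey points all genes tested. Short genes such as Pttg1 lie above 0 and long ones such as Cenpf, Prc1 and Mki67 lie below it.

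The kinases and cyclins set the timing of mitosis. Of the 10, 6 (60%) rose, beside 25.0% of all genes tested, and none fell. The median difference was 0.39 (0.37 without PBS replicate 3). Ccna2, cyclin A2, which drives cells through S phase and into mitosis, was counted at 2372.4, 2707.6 and 2269.0 in PBS and at 4634.0, 4709.0 and 4702.5 in pIpC-labelled libraries. The groups were far apart, and the pIpC-labelled values lay within a narrow range (log2 difference 0.94 ± 0.12 (SE), limma adjusted p = 0.00107). Plk1, a kinase needed for centrosome maturation, kinetochore attachment and cytokinesis, was at 1629.2, 1738.9 and 997.0 in PBS and at 2623.9, 2672.7 and 2783.0 in pIpC-labelled libraries, with PBS replicate 3 well below the other PBS values (log2 difference 0.93 ± 0.22 (SE), limma adjusted p = 0.0165, and 0.68 without PBS replicate 3). Ccnb1, the cyclin B1 partner of CDK1, rose from 2290.2, 2407.0 and 1895.5 to 3535.1, 3521.8 and 3399.0, again without overlap (log2 difference 0.67 ± 0.13 (SE), limma adjusted p = 0.0072).

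The other 3 kinases that rose did so by less. Bub1, a spindle checkpoint kinase at the kinetochore, gave 1822.1, 2135.7 and 1458.7 in PBS against 2584.0, 2413.2 and 2255.0 in pIpC-labelled libraries (0.44 ± 0.16 (SE), limma adjusted p = 0.0812). Aurkb, the kinase of the chromosomal passenger complex, gave 2112.8, 2200.5 and 2513.4 against 2794.6, 2852.5 and 3022.8 (0.35 ± 0.12 (SE), limma adjusted p = 0.0616). Both sets of values were apart, Bub1 most narrowly between PBS replicate 2 and pIpC replicate 3. Ttk, the kinase MPS1 that starts checkpoint signalling, gave 911.9, 1064.8 and 1001.5 against 1246.6, 1253.6 and 1169.1 (0.30 ± 0.12 (SE), limma adjusted p = 0.0895). Among those that missed the threshold, Cdk1, the central mitotic kinase, had means ± SD of 2984 ± 490 and 3737 ± 106 (n = 3 each, log2 difference 0.34, limma adjusted p = 0.119), and the checkpoint kinase-like protein Bub1b had 3228 ± 989 and 4274 ± 50.6 (0.46, limma adjusted p = 0.182). In both genes every pIpC-labelled value lay above every PBS value, and both passed without PBS replicate 3 (log2 differences 0.46 and 0.18). Ccnb2, cyclin B2, was the most abundant of the group per length, with a mean RPKM of 89.7 over all libraries (recovered reads per kilobase of merged exons, scaled to the library's reads on genes). Its counts were 2531.6, 2703.6 and 3458.4 in PBS against 3014.1, 3121.3 and 3287.8 in pIpC-labelled libraries, and they overlapped, with PBS replicate 3 the highest of all (0.13 ± 0.15 (SE), limma adjusted p = 0.528). Without that library Ccnb2 rose by 0.26 (limma adjusted p = 0.00925), and it rose by 0.379 with the length trend removed. Aurka, the spindle pole kinase, had 1870.0 ± 214 and 1833 ± 197 (-0.03, and 0.06 without PBS replicate 3), and its groups overlapped.

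Kinetochore proteins build the attachment site between centromere and spindle. Of the 10, 5 (50%) rose, beside 25.0% of all genes tested, and none fell. The median difference was 0.31 (0.36 without PBS replicate 3). Of the 5 that rose, 4 (Cenpa, Mad2l1, Ndc80 and Nuf2) lost the call with the length trend removed, at log2 differences between 0.151 and 0.164 and limma adjusted p between 0.356 and 0.56, while Cenpe kept it. The NDC80 complex, the microtubule-binding part of the kinetochore, has 4 subunits, all among the genes followed. Ndc80 itself gave 1325.5, 1287.5 and 1311.6 in PBS against 1679.7, 1625.5 and 1638.1 in pIpC-labelled libraries, among the tightest values of any member (0.33 ± 0.10 (SE), limma adjusted p = 0.0447). Its partner Nuf2 gave 1818.7, 2088.1 and 1903.5 against 2473.2, 2355.0 and 2389.5 (0.31 ± 0.11 (SE), limma adjusted p = 0.0679). Both genes were apart between the groups, with PBS replicate 3 between the other PBS values. The subunits that anchor the complex missed the threshold. Spc24, the kinetochore member most abundant per length (RPKM 26.5), gave 1141.2, 1303.7 and 1805.0 against 1639.8, 1490.6 and 1658.4 (0.20 ± 0.19 (SE), limma adjusted p = 0.437), and Spc25 had means of 1501 ± 334 and 1739 ± 39.3 (0.24, limma adjusted p = 0.326). In both, PBS replicate 3 was the highest PBS value and above every pIpC-labelled value, and without it they rose by 0.39 and 0.40 (limma adjusted p = 0.00419 and 0.00285).

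Cenpe, a kinetochore kinesin that moves chromosomes to the spindle equator, gave 2848.3, 3038.6 and 1603.6 in PBS against 3692.8, 3936.6 and 3713.3 in pIpC-labelled libraries. PBS replicate 3 lay far below the rest, and the difference of 0.65 ± 0.25 (SE) (limma adjusted p = 0.0823) was 0.36 without it. Mad2l1, the checkpoint protein MAD2 that holds Cdc20 inactive, gave 2039.3, 2390.8 and 2368.6 against 3232.7, 2879.1 and 2882.6 (0.41 ± 0.12 (SE), limma adjusted p = 0.0421). Cenpa, the histone H3 variant that marks centromeres, gave 2671.8, 2863.5 and 3149.4 against 3407.4, 3680.1 and 3618.5 (0.30 ± 0.12 (SE), limma adjusted p = 0.0865). Both genes had all pIpC-labelled values above all PBS values. Cenpf, a large protein of the outer kinetochore and the longest transcript of the members, had means of 1847 ± 825 and 3031 ± 578 and the largest difference that missed the threshold (0.82 ± 0.39 (SE), limma adjusted p = 0.143). Its PBS replicate 3 lay -1.36 from the other PBS libraries on the log2 scale, and without that library the difference was 0.37. The inner kinetochore proteins Cenpk and Cenpn had means of 514 ± 131 and 486 ± 31.7 for Cenpk (-0.05) and 751 ± 80 and 732 ± 15.5 for Cenpn (-0.03), and neither passed without PBS replicate 3.

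The spindle motors and microtubule binders build the spindle and move along it. Of the 10, 7 (70%) rose, beside 25.0% of all genes tested, and none fell. The median difference was 0.72 (0.41 without PBS replicate 3). In all 10 every pIpC-labelled value lay above every PBS value, where 30.5% of all genes tested did so. Kif4, a chromosome-bound kinesin that shapes the central spindle, gave 989.8, 1037.5 and 955.1 in PBS against 1740.6, 1763.4 and 1861.5 in pIpC-labelled libraries (0.85 ± 0.11 (SE), limma adjusted p = 0.00119). Nusap1, which bundles spindle microtubules near chromosomes, gave 2190.7, 2297.7 and 2455.7 against 3988.3, 4005.0 and 3897.0 (0.78 ± 0.11 (SE), limma adjusted p = 0.00172). In both genes all 3 PBS libraries were close to each other, PBS replicate 3 included, and the differences without it were 0.82 and 0.82. Kif11, the Eg5 motor that pushes spindle poles apart, gave 4968.9, 5330.2 and 3390.5 against 7518.4, 7303.0 and 7162.6 (0.71 ± 0.19 (SE), limma adjusted p = 0.026). Kif15, a kinesin that acts beside it on spindle bipolarity, gave 2624.2, 3016.3 and 1919.3 against 4017.2, 4427.0 and 4070.1 (0.75 ± 0.18 (SE), limma adjusted p = 0.0185). In these 2 motors PBS replicate 3 was the lowest value, and without it the differences were 0.51 and 0.57.

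Tpx2, which activates Aurora A and seeds microtubules, was the most abundant of the group per length (RPKM 40.3) and gave 3538.7, 3835.2 and 3045.3 in PBS against 4878.5, 4737.6 and 4716.0 in pIpC-labelled libraries (0.47 ± 0.13 (SE), limma adjusted p = 0.029). Kif23, the centralspindlin motor MKLP1 of cytokinesis, gave 3235.0, 3232.9 and 2551.9 against 3905.4, 4251.2 and 4132.0 (0.45 ± 0.14 (SE), limma adjusted p = 0.0409). Kif2c, the microtubule depolymerase MCAK that corrects faulty attachments, gave 1307.3, 1294.6 and 1394.2 against 1820.5, 1732.8 and 1728.0 (0.40 ± 0.11 (SE), limma adjusted p = 0.0259). The 3 genes were apart between groups, Kif2c with its highest PBS value in replicate 3. Prc1, which cross-links the central spindle, the cytokinesis motor Kif20a and the motor Kif18b missed the threshold at log2 differences of 0.74, 0.72 and 0.50 (limma adjusted p = 0.149, 0.158 and 0.13). Their means were 2308 ± 1010.0 and 3554 ± 120 for Prc1, 1374 ± 602 and 2085 ± 31.6 for Kif20a and 1268 ± 357 and 1741 ± 69.9 for Kif18b. PBS replicate 3 lay -1.32, -1.32 and -0.78 from the other PBS libraries in these genes, and without it all 3 rose, by 0.30, 0.28 and 0.24.

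**Figure D3:**
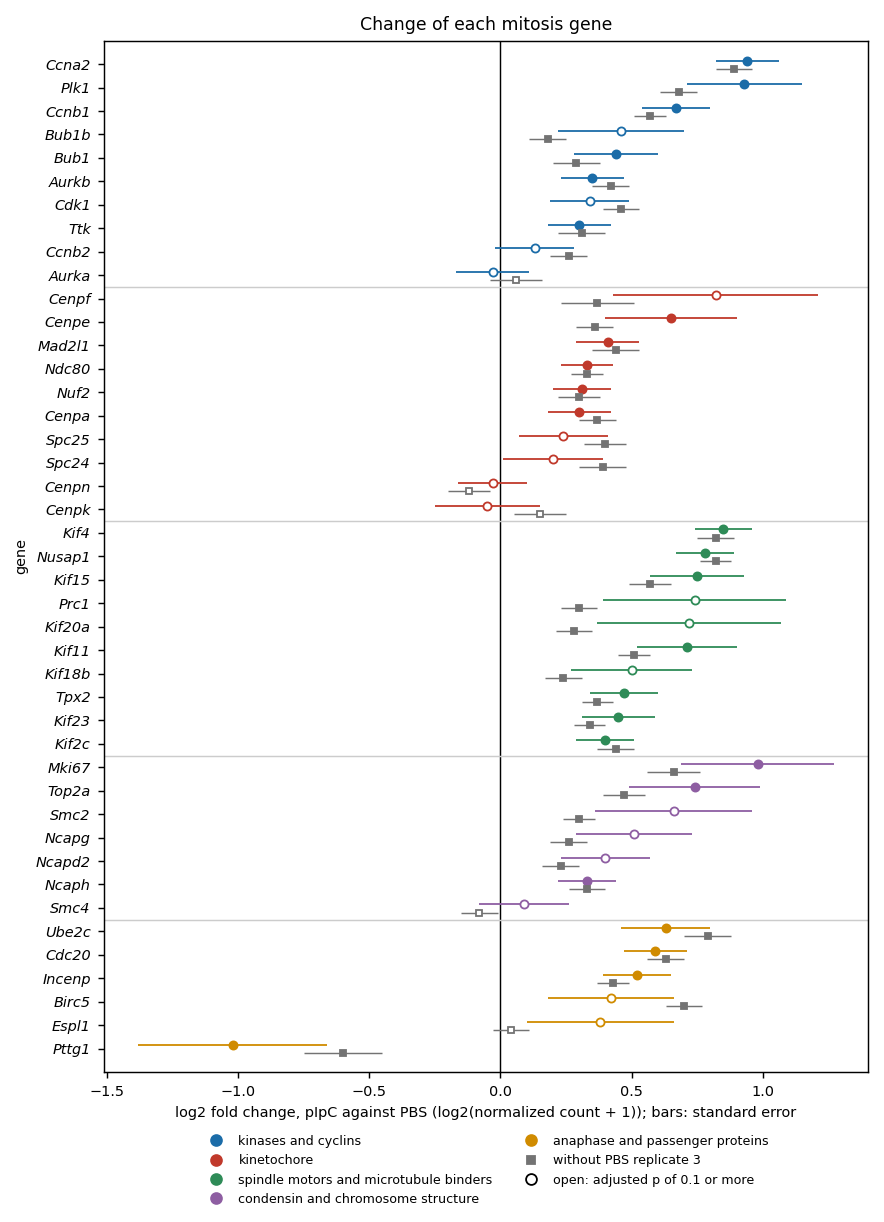
Coloured circles are the log2 difference of each gene between pIpC-labelled and PBS libraries with its standard error, and grey squares the same without PBS replicate 3 (n = 3 against 3 and 3 against 2). Filled symbols passed the threshold. Most squares lie to the right of 0 with shorter bars than the circles, and Pttg1 lies far to the left.

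Condensins and their companions fold chromosomes for mitosis. Of the 7, 3 (42.9%) rose, beside 25.0% of all genes tested, and none fell. The median difference was 0.51 (0.30 without PBS replicate 3). Mki67, the Ki-67 protein that coats mitotic chromosomes and is the standard marker of cycling cells, had the highest RPKM of the 43. It gave 17102.6, 19632.4 and 9267.2 in PBS against 26440.6, 32171.9 and 28267.3 in pIpC-labelled libraries (0.98 ± 0.29 (SE), limma adjusted p = 0.0391), and PBS replicate 3 was at the bottom, so that the difference was 0.66 without it, less than that of Ccna2 (0.89). Top2a, topoisomerase II alpha, which untangles sister chromatids, gave 13748.2, 15748.7 and 8411.7 against 20024.1, 21364.5 and 19648.4 (0.74 ± 0.25 (SE), limma adjusted p = 0.0566, and 0.47 without PBS replicate 3). Ncaph, the kleisin subunit of condensin I, gave 1931.2, 2093.2 and 1983.8 against 2415.3, 2511.3 and 2638.9, with PBS replicate 3 between the other PBS values (0.33 ± 0.11 (SE), limma adjusted p = 0.0522).

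The remaining condensin subunits missed the threshold. Smc4 and Smc2 are the ATPases shared by both condensins. Smc4 was the second member per length (RPKM 97.8) with means of 10770.0 ± 1990.0 and 11310.0 ± 529 and overlapping groups (0.09, and -0.08 without PBS replicate 3), while Smc2 had 3472 ± 1290.0 and 5196 ± 123 (0.66, limma adjusted p = 0.128). The condensin I subunits Ncapd2 and Ncapg had 6369 ± 1210.0 and 8291 ± 545 for the first (0.40) and 1873 ± 523 and 2594 ± 139 for the second (0.51), each with a limma adjusted p of 0.121. For Smc2, Ncapd2 and Ncapg every pIpC-labelled value lay above every PBS value, and without PBS replicate 3 these genes rose by 0.30, 0.23 and 0.26, while Smc4 did not pass.

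The last group holds the proteins that start anaphase and the passenger proteins that follow the chromosomes to the midzone. Of the 6, 3 (50%) rose and 1 (16.7%) fell, beside 25.0% and 20.4% of all genes tested. The median difference was 0.47 (0.53 without PBS replicate 3). Cdc20, the activator of the anaphase-promoting complex and the most abundant of the group per length (RPKM 76.2), gave 2350.8, 2508.2 and 2647.0 in PBS against 3923.4, 3493.1 and 3911.5 in pIpC-labelled libraries (0.59 ± 0.12 (SE), limma adjusted p = 0.00765). Ube2c, the ubiquitin-conjugating enzyme of the same complex, gave 2280.7, 2786.6 and 3547.8 against 4392.5, 4397.3 and 4320.5 (0.63 ± 0.17 (SE), limma adjusted p = 0.0302). Incenp, the scaffold of the passenger complex, gave 4366.7, 4564.0 and 3672.3 against 5866.6, 5915.6 and 6259.4 (0.52 ± 0.13 (SE), limma adjusted p = 0.0199). In all 3 genes the groups were apart.

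Pttg1, securin, which holds separase inactive until anaphase, was the one member that fell. It gave 378.1, 345.2 and 854.4 in PBS against 259.5, 256.4 and 201.1 in pIpC-labelled libraries, so that every pIpC-labelled value lay below every PBS value and PBS replicate 3 was the highest by far. The difference of -1.02 ± 0.36 (SE) (limma adjusted p = 0.0649) was -0.60 without PBS replicate 3 (limma adjusted p = 0.00654), and the gene missed the threshold with any single pIpC-labelled library left out (limma adjusted p between 0.138 and 0.192). Espl1, separase itself, had means of 1615 ± 566 and 2000.0 ± 129 with overlapping groups (0.38, limma adjusted p = 0.33, and 0.04 without PBS replicate 3). Birc5, the passenger protein survivin, had means of 2138 ± 768 and 2758 ± 32.8 (0.42, limma adjusted p = 0.208). Its PBS replicate 3 lay 0.83 above the other PBS libraries and above every pIpC-labelled value, and without it Birc5 rose by 0.70 (limma adjusted p = 3.03e-05), the largest difference among the 13 genes called only without this library.

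The spread between replicates differed between the groups. The median SD of the 43 genes on the log2 scale was 0.284 over the 3 PBS libraries, 0.082 between PBS replicates 1 and 2, and 0.056 over the pIpC-labelled libraries, against 0.394, 0.096 and 0.133 over all genes tested. Of the 18 members that were not called, 8 had every pIpC-labelled value above every PBS value. Over all genes tested, called or not, 30.5% did so. The call of 9 genes held under every alternative tried: Plk1, Ccna2, Ccnb1, Kif11, Kif15, Kif4, Nusap1, Incenp and Cdc20. Leaving out pIpC replicate 1, 2 or 3 left 13, 10 or 11 members higher and none lower.

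Other mitosis genes were also listed by role. Of 107 such genes, 35 (32.7%) rose and 3 (2.8%) fell, with a median difference of 0.30, beside 25.0% and 20.4% of all genes. Without PBS replicate 3, 66 (61.7%) rose and 10 (9.35%) fell, beside 34.5% and 30.6% of all genes, with a median of 0.23. The 18 further spindle and cytokinesis genes gave 8 (44.4%) that rose and none that fell. They ran from Kifc1, a minus-end kinesin, at 0.47 to Ect2, the RhoA activator of cytokinesis, at 1.78. Ect2 gave 758.8, 901.9 and 454.9 in PBS against 2352.4, 2338.6 and 2293.7 in pIpC-labelled libraries (limma adjusted p = 0.00177). The 3 further condensin subunits all belong to condensin II. Ncapg2 rose by 1.13 and Ncaph2 by 0.37, while Ncapd3 was not called (0.28). With PBS replicate 3 left out they were at 0.71, 0.45 and -0.06. Of 28 further kinetochore and centromere genes, 4 (14.3%) rose and 2 (7.14%) fell, both below the 25.0% and 20.4% of all genes. Among them were Hjurp, the CENP-A chaperone, at 0.76 and Cenpm at -0.99. With PBS replicate 3 left out, 19 of the 28 (67.9%) rose and 3 (10.7%) fell, beside 34.5% and 30.6% of all genes. Hjurp was then at 0.49 and Cenpm at -0.63. Of 9 further checkpoint and cohesion guard genes 3 (33.3%) rose, from Sgo1 at 0.39 to Sgo2a at 0.84, the shugoshins that protect centromeric cohesion. Without PBS replicate 3, 14 of the spindle and cytokinesis genes rose and 1 fell, and 6 of the checkpoint and cohesion guard genes rose. Ect2 was then at 1.49.

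Of 17 subunits and cofactors of the anaphase-promoting complex, 4 (23.5%) rose and 1 fell, close to the 25.0% of all genes that rose, with a median of 0.06, from Anapc11, its RING subunit, at -1.07 to Fbxo5, the inhibitor EMI1, at 0.55. Without PBS replicate 3, 8 of them (47.1%) rose and 3 (17.6%) fell, beside 34.5% and 30.6% of all genes, with a median of 0.04. Anapc11 was then at -0.58 and Fbxo5 at 0.67. Of 14 mitotic entry genes (kinases, phosphatases and their regulators), 5 (35.7%) rose, beside 25.0% of all genes. These ran from Ensa, one of the regulators, at 0.30 to Cdc25a, a phosphatase that activates CDKs, at 1.25 (limma adjusted p = 0.000667). With PBS replicate 3 left out, 7 of the 14 (50%) rose and 1 (7.14%) fell, and Cdc25a was at 1.12. Of 18 genes for the transcription control of G2/M phase, 9 (50%) rose and none fell, with a median of 0.49. With PBS replicate 3 left out, 10 (55.6%) rose and 2 (11.1%) fell, with a median of 0.24. The 9 that rose with all libraries were Foxm1, Mybl2, Lin9, Lin54, E2f4, Tfdp1, Tfdp2, Nfyb and E2f7. They ranged from 0.47 for E2f4 to 1.16 for the repressor E2f7, which was at 0.82 without PBS replicate 3. Mybl2, which encodes the B-MYB factor that works with MuvB, was chosen after its values were seen, with means of 1427 ± 26.7 and 2276 ± 86.5 (0.67, limma adjusted p = 0.00287).

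**Figure D4:**
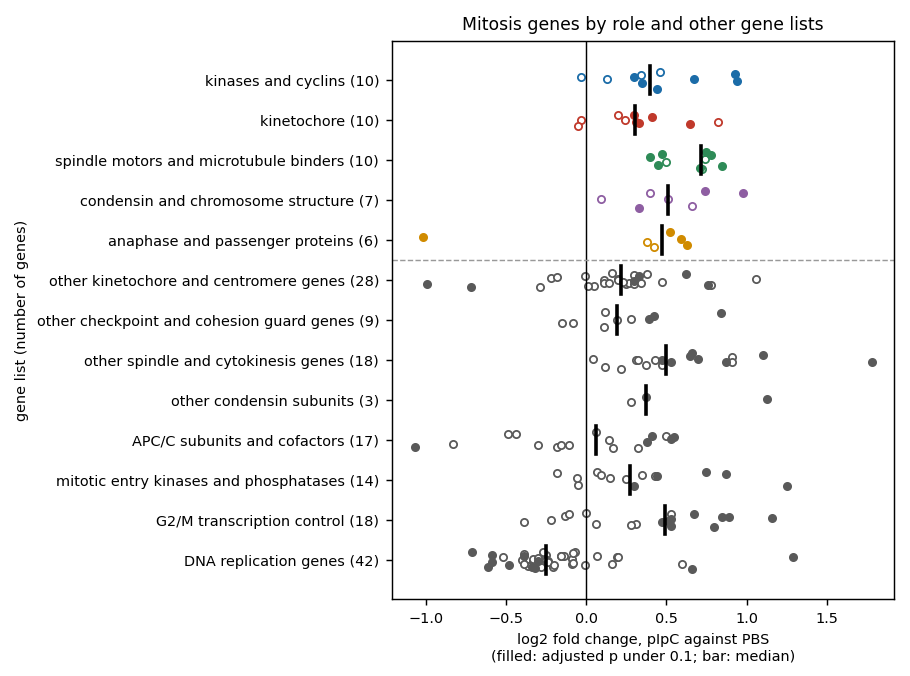
Each point is the log2 difference of a gene between pIpC-labelled and PBS libraries, in rows by gene list with the number of genes in parentheses, filled where the adjusted p was under 0.1, and the bar is the list's median. The medians of the 5 role groups above the dashed line run from 0.31 to 0.72. Those of the other mitosis lists run from 0.06 to 0.50, and that of the DNA replication genes is -0.25. With PBS replicate 3 left out, which is not drawn, these medians were 0.30 to 0.53, 0.04 to 0.45 and -0.13.

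Genes of DNA replication act in the S phase before mitosis. Of 42 such genes, 9 (21.4%) fell, close to the 20.4% of all genes tested, and 2 (4.76%) rose, where 25.0% of all genes rose, with a median difference of -0.25. Rfc3, a clamp loader subunit, gave 995.0, 979.8 and 1782.4 in PBS against 775.5, 664.1 and 767.8 in pIpC-labelled libraries (-0.71 ± 0.25 (SE), limma adjusted p = 0.065), and the helicase subunits Mcm2, Mcm3 and Mcm6 and the primase subunits Prim1 and Prim2 were among the others that fell. The members that rose, Rrm2 and Tk1, make deoxynucleotides, and Rrm2, the small subunit of ribonucleotide reductase, gave 2816.3, 3179.3 and 3387.1 against 7633.2, 7712.7 and 7597.7 (1.29 ± 0.12 (SE), limma adjusted p = 0.000286). Without PBS replicate 3, 19 (45.2%) fell and 4 (9.52%) rose, beside 30.6% and 34.5% of all genes, and the median was -0.13. Rfc3 was then at -0.43 and Rrm2 at 1.35. As shares of the reads on genes, the 43 mitosis genes took 0.688%, 0.745% and 0.446% in the PBS libraries, in order of replicate, then 0.787%, 0.836% and 0.809% in the pIpC-labelled libraries. The 42 replication genes took 0.607%, 0.635% and 0.591% and then 0.495%, 0.477% and 0.489%. A share also depends on the reads of all other genes. The 15 neutrophil markers took 0.425% to 0.666% in PBS and 9.79% to 9.99% in pIpC-labelled libraries. In summed normalized counts the replication genes were at 117500, 123900 and 142000 and then at 115000, 109000 and 111500. The mitosis genes were at 133200, 145400 and 107100 and then at 182500, 190900 and 184500. For each read on a replication gene there were 1.13, 1.17 and 0.754 reads on a mitosis gene in PBS and 1.59, 1.75 and 1.65 in pIpC-labelled libraries. This ratio does not depend on the scaling of a library, its groups did not overlap, and it is given with no test because the genes were chosen by name with earlier results known.

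**Figure D5:**
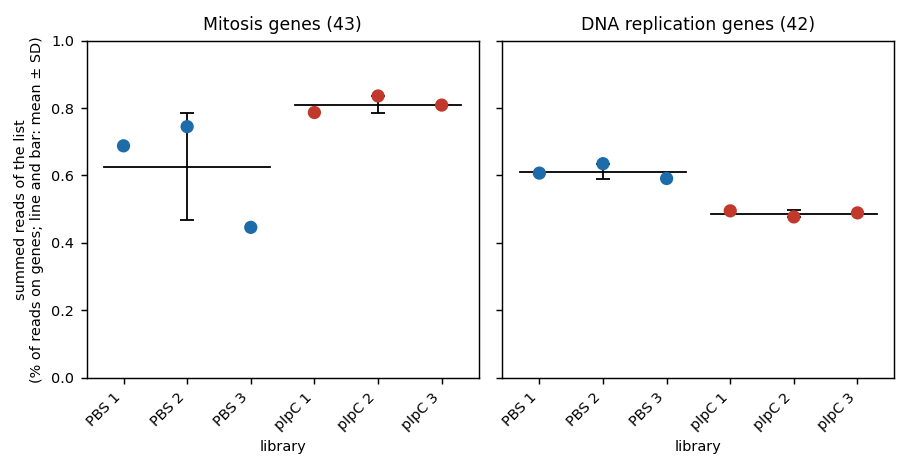
Points are libraries and the vertical axis is the summed reads of a list as a percentage of all reads on genes, with the mean and SD of each group (n = 3). The mitosis genes lie between 0.446% and 0.745% in PBS and between 0.787% and 0.836% in pIpC-labelled libraries. The replication genes lie lower in every pIpC-labelled library than in every PBS library. A share also depends on the reads of all other genes.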

How the data were processed

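RNA-seq libraries of 6 bone marrow samples were compared, 3 labelled PBS and 3 labelled pIpC. The authors deposited one table of normalized gene counts, a signal scaled by one factor per library. Whole reads were recovered, since 100% of the nonzero values in each column came out whole when divided by that factor (tolerance 0.05). The paper's methods describe the nf-core/rnaseq pipeline with STAR, RSEM and DESeq2 on stranded libraries, while the submitters' processing notes name HISAT2 2.2.1, SAMtools, featureCounts, Subread and edgeR with GRCm38 and the labels describe unstranded libraries. Which route made the table is not given in the sources used here. If counting was without strand, reads of genes that overlap on opposite strands cannot be told apart. Lengths are merged exons of GENCODE M21 (GRCm38), and 55141 of 55487 genes had a symbol and a length.

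Values were tested as log2(normalized count + 1), which understates changes of low genes, by limma 3.58.1 with its trend option in R 4.3.3, for 15020 genes with a mean of at least 10, adjusted by Benjamini-Hochberg at 0.1 (the threshold in the study's methods). Alternatives were quantile normalization, median-of-ratios size factors, pseudocounts of 0.1 and 10, a mean of at least 50 or no filter, each library left out, a replicate block, no intensity trend, removal of the length trend, edgeR 4.0.16 and DESeq2 1.42.0 on recovered reads, and an adjusted p under 0.05. The scripts were tested on simulated data. By replicate, recovered reads numbered 22378154, 19277439 and 21230930 for PBS, with 23248511, 22348517 and 23586722 for pIpC. Counting error is small at these depths, and no pair of libraries agreed within sampling noise.

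The genes and lists were chosen with earlier results of these data known. Values in every library are given for each of the 43 genes past the threshold and for the most abundant per length in each role group. Other genes named are those past the threshold with the highest and lowest difference in each list, and Brd9. Further list members (other G2/M control and replication genes, Ncapd3, and marker genes) are named after their values were seen. Some marker genes are not reported here.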

Additional observations from a re-analysis of the deposited data

How the results depend on the processing

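Counts for the 43 genes depended most on the libraries. With one library left out at a time, members called higher ranged from 10 (without pIpC replicate 2) to 37 (without PBS replicate 3), with 13 and 11 without pIpC replicates 1 and 3, members called lower ranged from 0 (without any one pIpC replicate) to 1, and the median log2 difference ranged from 0.37 (without PBS replicate 3) to 0.56 (without PBS replicate 2). Quantile normalization gave 14 members higher and a median of 0.32. At an adjusted p under 0.05, 16 rose and 0 fell, with Pttg1 at 0.0649 by limma. The edgeR and DESeq2 tests on recovered reads gave 21 and 24 members higher and 1 lower, and called 6901 and 7451 of all genes, where limma called 6808. Causes were not tested, apart from the fewer libraries or the stricter threshold themselves.

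With a replicate block, 14 members rose and 1 fell, and with the length trend removed and a replicate block 20 rose. Deviations of same-numbered libraries from the mean of each group correlated at -0.117, 0.143 and 0.041, so the numbers were not taken to pair the libraries.

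Signs changed for 4 genes, none called in any alternative. Aurka (-0.03) was 0.059 without PBS replicate 3 and 0.057 without pIpC replicate 2 (range -0.103 to 0.059 with a library left out) and 0.104 with the length trend removed, with or without the block. Cenpk (-0.05) was 0.148 without PBS replicate 3 (range -0.157 to 0.148). Cenpn (-0.03) was 0.036 without PBS replicate 2 (range -0.118 to 0.036) and 0.016 with the length trend removed, with or without the block. Smc4 (0.09) was -0.077 without PBS replicate 3 (range -0.077 to 0.179) and -0.02 with the length trend removed, with or without the block. Over 817 comparisons of a member's value with an alternative, 668 kept direction and call, 109 lost the call, 29 gained it and 11 changed sign. Every gene had 208 reads or more in every library.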
